A study of Homo sapiens with 6 samples.

Results

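Membrane fusion by SNARE proteins was followed here through 53 genes. Among them are the protein-coding SNAREs (syntaxins, VAMPs, SNAP23 and its relatives, BET1, GOSR, SEC22, VTI1, USE1, YKT6 and BNIP1). Also included are Sec1/Munc18 (SM) proteins named STXBP, VPS33 or VPS45 and other syntaxin-binding proteins. The disassembly factors NSF, NAPA, NAPB and NAPG complete the set. All 53 were picked by gene symbol and gene type from the 30327 genes of the count table. They fill 54 lines of it, because VAMP7 lies in a region shared by the X and Y chromosomes and is listed for both. RNA came from the HER2-amplified breast cancer line SK-BR-3, a long-established culture, and was captured as mRNA and sequenced in 6 strand-specific libraries. The control group (si_NC) has 3 libraries, from cells that received a siRNA without a target, and the group si_GRB2 has 3, from cells that received siRNA against GRB2. GRB2 is the adaptor that links activated receptor tyrosine kinases to RAS. The titles of the treated libraries and the series' design text say that GRB2 was overexpressed, while their descriptions say si_GRB2, and the grouping followed the descriptions. The study's methods give a single siRNA sequence against GRB2. The study also prepared RNA for several siRNAs against GRB2, and the labels do not say which of them gave these libraries. No source says that replicates came from separate cultures, so p-values measure the spread between these libraries only.

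Fusion of a transport vesicle with its target membrane is driven by 4 SNARE helices that zip into a bundle, and each bundle takes 1 helix of each class, Qa, Qb, Qc and R. Syntaxins of the Qa class sit mostly on the target membrane, R-SNAREs such as the VAMPs mostly on the vesicle, and SNAP23 and its relatives (Qbc) carry a Qb and a Qc helix in 1 chain. SM proteins hold syntaxins ready for assembly, and the ATPase NSF with its SNAP adaptors pulls spent bundles apart so that their parts can be used again. Different syntaxins serve different membranes, among them STX12 (also called syntaxin 13) at early and recycling endosomes, STX7 at late endosomes, STX16 at the trans-Golgi network, STX5 and STX18 at the Golgi and the endoplasmic reticulum, and STX3 and STX4 at the plasma membrane.

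Q-SNAREs and R-SNAREs are named for 1 residue in the middle of the helix, mostly a glutamine in Q-SNAREs and an arginine in R-SNAREs. This residue does not tell Qa, Qb and Qc apart. The 30 coding bases around that codon are shown for STX12, the syntaxin that rose most, for STX7, another endosomal syntaxin, which did not pass the test, and for VAMP3 and VAMP8, R-SNAREs that moved in opposite directions. For NSF, the regulator that fell most, the bases around the lysine codon of its first ATP-binding loop (Walker A motif) are shown. All were read 5′ to 3′ on the coding strand from the canonical GENCODE 44 transcripts, and the capitals mark the codon named.
STX12, glutamine: atgatgatccatgacCAGggtgatctgatt
STX7, glutamine: atgatgattcatgaaCAAggagatgtaata
VAMP8, arginine: gagcggatcctggccCGGggggaaaacttg
VAMP3, arginine: gacaaggttctggaaAGAgaccagaagctc
NSF, lysine: cccccaggttgtggtAAGactctcttggct

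The STX12 stretch lies on the plus strand of GRCh38 at chr1:27817893-27817922, in exon 7 of 9, and holds codon 212 of 276. The STX7 stretch lies on the minus strand at chr6:132468404-132468433, in exon 8 of 10. STX12 and STX7 had the same base at 23 of these 30 positions, and VAMP8 and VAMP3 at 14. The VAMP8 stretch is at chr2:85579099-85579128 in exon 2 of 3, and the VAMP3 stretch at chr1:7777187-7777216 in exon 3 of 5, both on the plus strand. The NSF stretch is on the plus strand at chr17:46674449-46674478, in exon 9 of 21, and holds codon 266 of 744. The counts are per gene and do not tell transcripts or exons apart.

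Reads counted on genes numbered 24810378 to 28532480 a library. GRB2 itself was at 124, 130 and 126 CPM (reads per gene scaled to library size, with TMM normalization) in the si_NC libraries and at 27.8, 28.1 and 29.6 CPM in the si_GRB2 libraries, so the libraries labelled si_GRB2 had less of the targeted transcript. Its log2 fold change (log2FC) was −2.15 with a standard error (SE) of 0.04 (edgeR adjusted p = 3.87e-15). All 7 marker genes of SK-BR-3 were present, from 12.6 FPKM for TFAP2A to 1180 FPKM for KRT19, and ERBB2 was at 302 FPKM, as means over both groups. At an edgeR adjusted p under 0.05, ERBB2 rose in si_GRB2 (log2FC 0.24) and TFAP2A did not pass. The others fell, with log2FC values of −0.55 for KRT18 and EPCAM, −0.41 for KRT8, −0.23 for GRB7 and −0.20 for KRT19. The 8 markers of immune, endothelial, stromal and fat cells reached at most 0.425 FPKM on average, where listed, and of the 3 that could be tested ACTA2 fell, from 1.72 to 0.69 CPM. Correlations of log2 CPM were 0.992 to 0.995 between libraries of a group and 0.988 to 0.992 between groups. Differences were tested by edgeR quasi-likelihood for the 15801 genes with enough reads, and p-values were adjusted over all of these by Benjamini-Hochberg.

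Of the 53 SNARE and SM genes, 49 had enough reads to be tested. At an adjusted p under 0.05 (edgeR), 14 of them rose in si_GRB2, where 15.2% of all tested genes did, and 5 fell, where 15.5% did. The members' shares were 28.6% and 10.2%. The other 30 did not pass. The study's methods call a gene differentially expressed (DEG) past a 1.5-fold change in either direction with a DESeq2 p value under 0.01. The DEG limits used here kept that fold change but took an edgeR adjusted p under 0.01. Past them, the members held 1 gene that rose, STX12, and 1 that fell, NSF. Of all tested genes, 0.829% rose and 1.69% fell past these limits. Values of the groups did not overlap for 18 members with si_GRB2 higher and for 7 with si_GRB2 lower, against 21.1% and 21.2% of all tested genes. The median log2FC of the 49 members was 0.03, and that of all tested genes was 0.0019.

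The number of members past the test depended on the libraries. Without si_NC replicate 2 it was 9 higher and 3 lower, and without si_GRB2 replicate 2 it was 9 higher and 5 lower. Without si_GRB2 replicate 1 it was 11 higher and 3 lower. The number called among all genes shrank too, from 4838 to 3893, 3774 and 4266 in these refits, in that order. With DESeq2, 10 members were higher and 3 lower, and 3787 of all genes were called. With limma on log2(FPKM + 1), 2 members were higher, STX12 and VAMP3, and 1 lower, NSF. That fit called 1400 of all genes.

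**Figure D1:**
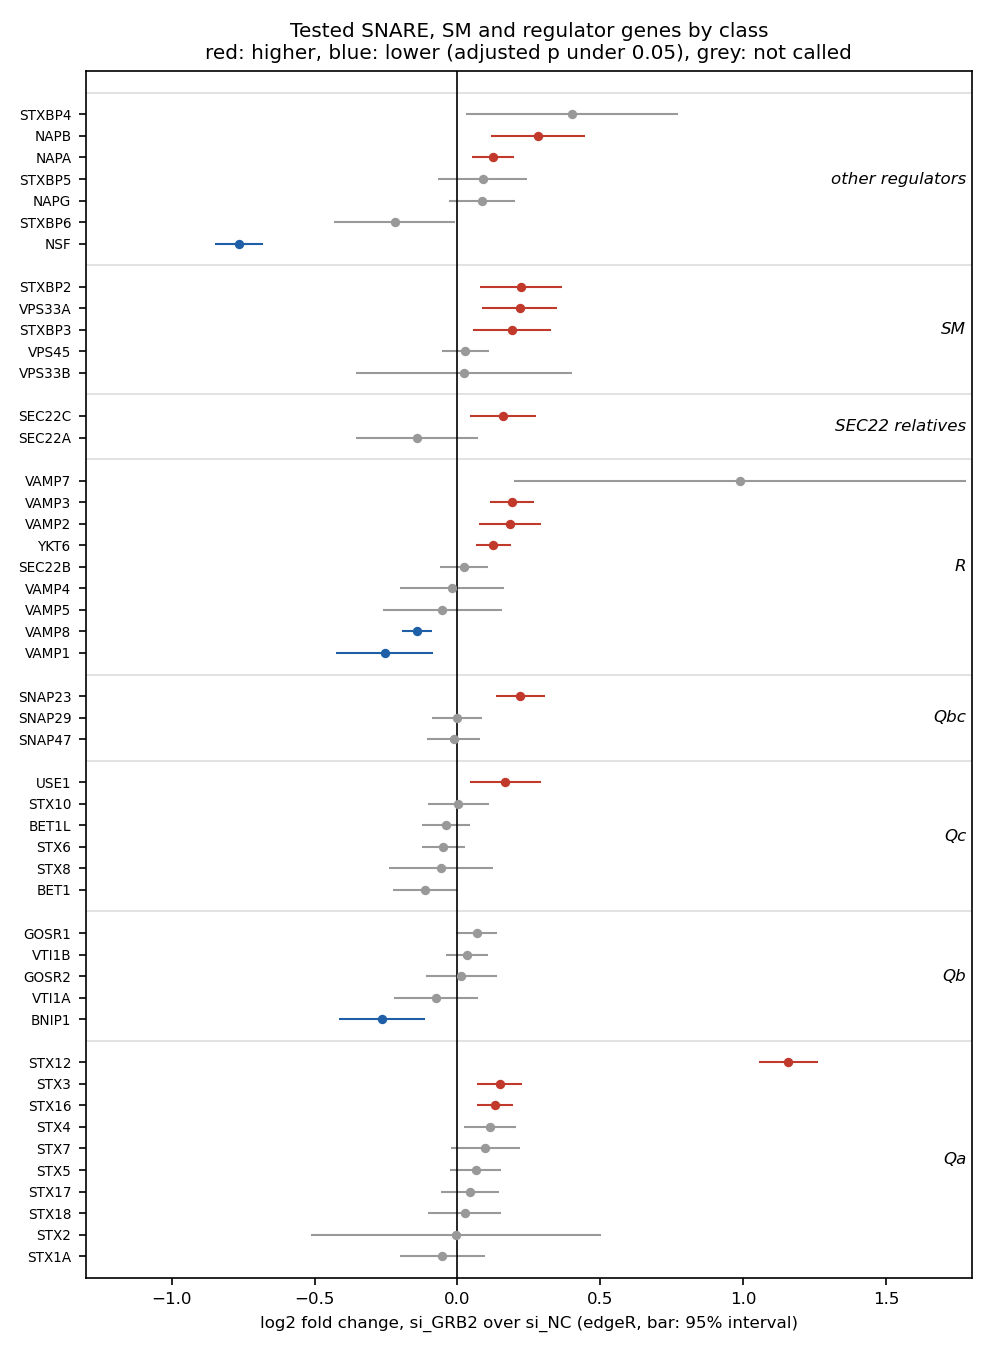
The horizontal axis gives the log2FC of si_GRB2 over si_NC for the tested members described here, grouped by class, with its 95% interval from edgeR (n = 3 libraries a group), and red and blue mark genes higher or lower at an adjusted p under 0.05. STX12 at 1.16 and NSF at −0.76 stood apart from most others, and the interval of VAMP7, a gene with few reads, reached that of STX12.

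STX12 (ENSG00000117758.14, plus strand of chromosome 1 of GRCh38 from 27773219 to 27824443) was the member with the largest rise. It was at 18.7, 19.5 and 18.5 CPM in si_NC and at 41.9, 41.1 and 43.5 CPM in si_GRB2, so every si_GRB2 library held far more STX12 reads than any si_NC library at equal depth. The means were 18.9 ± 0.527 CPM and 42.1 ± 1.21 CPM (SD, n = 3 each), a ratio of 2.23. The log2FC was 1.16 (SE 0.05, 95% interval 1.05 to 1.26, edgeR adjusted p = 6.23e-11), the 26th largest rise of the 15801 tested genes. An exact permutation test over the 6 libraries gave a two-sided p of 0.1, the smallest that 3 against 3 allow. STX12 was singled out with this rise already known, so its place among the members is a description.

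Of the other 48 tested members, 1 had a 95% interval that reached that of STX12. This was VAMP7, an R-SNARE of late endosomes and lysosomes, with 87 reads in all libraries together. VAMP7 was at 0.357, 0.196 and 0.535 CPM in si_NC and at 0.914, 0.546 and 0.751 CPM in si_GRB2. Its groups did not overlap, and its log2FC of 0.99 had a SE of 0.37 and did not pass the test (edgeR adjusted p = 0.0554). It passed without si_NC replicate 3, at a log2FC of 1.37 (edgeR adjusted p = 0.0219), and with no filter on low counts (edgeR adjusted p = 0.0365), so its call depended on these choices. The line for its Y-chromosome copy held 1 read. The authors used uniquely mapped reads, so reads that match both copies equally may be missing and the level of VAMP7 understated. This was not tested.

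STX7, STX6, VTI1A and VAMP4, SNAREs of the same endosomal and trans-Golgi membranes, did not follow STX12. STX7 was at 28.4, 25.9 and 26.2 CPM in si_NC and at 26.8, 29.2 and 30.1 CPM in si_GRB2, with overlapping groups. Its log2FC was 0.10, with a 95% interval from −0.02 to 0.22. The interval was −0.13 to 0.03 for STX6, −0.22 to 0.07 for VTI1A and −0.20 to 0.16 for VAMP4, so none of these intervals held a rise of the size of STX12's. The log2 ratio of STX12 to STX7 counts was −0.61, −0.41 and −0.50 in si_NC and 0.65, 0.49 and 0.53 in si_GRB2, a difference of 1.06. Counts are not scaled to length. In the authors' FPKM, STX12 was above STX7 in both groups, at 3.99 against 1.31 in si_NC and 9.18 against 1.45 in si_GRB2. By counts STX12 was below STX7 in si_NC, so this order rests on the gene lengths behind FPKM, which were not checked. Over 7 such ratios of counts between members, each exact permutation test gave a two-sided p of 0.1, the smallest possible, and 0.1 after adjustment. Each ratio held STX12 or NSF, whose own values already separated the groups, so these tests say nothing about the partner genes.

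**Figure D2:**
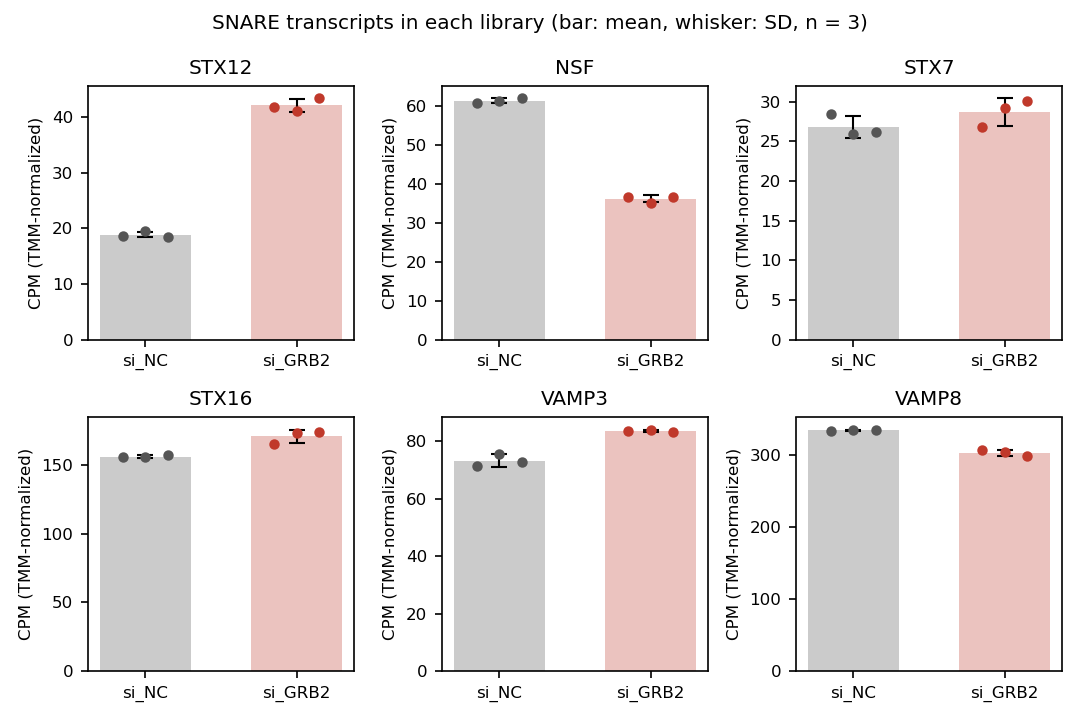
Each panel plots 1 gene in TMM-normalized CPM, with a point per library, a bar for the mean and a whisker for the SD (n = 3 a group). The STX12 points rose from about 19 to between 41.1 and 43.5 CPM and the NSF points fell to between 35.2 and 36.7 CPM, while the points of STX7 overlapped between groups.

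Genes beside STX12 on the chromosome moved little. The upstream gene FAM76A had a log2FC of 0.09 (edgeR adjusted p = 0.427), and the next gene downstream, PPP1R8, one of 0.12 (edgeR adjusted p = 0.024). THEMIS2 was at 0.16 (edgeR adjusted p = 0.468) and RPA2 at −0.12 (edgeR adjusted p = 0.0428). These were the protein-coding genes within 100 kb. The 2 noncoding genes annotated inside STX12 on its own strand held 11 and 2 reads, against 4822 for STX12.

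The rise changed the place of STX12 among the syntaxins per length. In the authors' FPKM it was at 3.82, 4.08 and 4.08 in si_NC, the fifth level of the 13 Qa syntaxins, and at 8.84, 9.14 and 9.56 in si_GRB2. There it lay beside STX4 at 9.35 ± 0.317 FPKM and STX3 at 8.88 ± 0.43 FPKM (SD, n = 3 each), 2 neighbours whose values overlapped with its own. As a share of the summed FPKM of all Qa syntaxins, STX12 took 5.84% ± 0.184 in si_NC and 11.4% ± 0.295 in si_GRB2 (SD, n = 3 each). Within the endosomal and trans-Golgi trio of STX7, STX12 and STX16, its share was 13.4% ± 0.373 and 23.9% ± 0.65 (SD, n = 3 each). STX16 held the first place in both groups, at 24.6 ± 1.02 FPKM and 27.8 ± 1.53 FPKM, and STX5 the second, at 14.1 ± 0.961 FPKM and 15.1 ± 0.0721 FPKM (SD, n = 3 each). These places and shares rest on the gene lengths behind the authors' FPKM, which were not checked.

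The remaining Qa syntaxins moved by little. STX16 rose from 156 ± 0.874 to 171 ± 4.84 CPM (SD, n = 3 each), a log2FC of 0.13 (edgeR adjusted p = 0.0032). STX3, which serves the apical plasma membrane of epithelial cells, rose from 70.8 ± 1.42 to 78.4 ± 1.84 CPM (SD, n = 3 each), a log2FC of 0.15 (edgeR adjusted p = 0.00551). The other 8 tested did not pass. STX11 and STX19, with 7 and 21 reads in all, were too low to test.

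NSF (ENSG00000073969.18, plus strand of chromosome 17 of GRCh38 from 46590669 to 46757679) was the member with the largest fall. Its ATPase recycles SNAREs after fusion on nearly all membranes of the secretory and endosomal routes. It was at 60.8, 61.4 and 62.0 CPM in si_NC and at 36.7, 35.2 and 36.6 CPM in si_GRB2. The si_GRB2 libraries thus lay far below the narrow range of the controls, with means of 61.4 ± 0.619 and 36.1 ± 0.839 CPM (SD, n = 3 each). The log2FC was −0.76 (SE 0.04, 95% interval −0.85 to −0.68, edgeR adjusted p = 8.94e-10), the 241st largest fall of 15801 tested genes. In FPKM, NSF was at 9.46, 9.75 and 10.35 in si_NC and at 5.88, 5.94 and 6.11 in si_GRB2. An exact permutation test gave a two-sided p of 0.1, the smallest possible, which any gene whose groups do not overlap must give. NSF was named for its fall in these same values, so its place among the members is a description.

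The SNAP adaptors that bring NSF to its substrates did not fall with it. NAPA (alpha-SNAP), the most abundant, was at 135, 142 and 141 CPM in si_NC and at 152, 157 and 146 CPM in si_GRB2. It rose by a log2FC of 0.12 (edgeR adjusted p = 0.0117), and NAPB (beta-SNAP) by 0.28 (edgeR adjusted p = 0.0112), from 9.62 ± 0.236 to 11.7 ± 0.227 CPM (SD, n = 3 each). NAPG (gamma-SNAP) had a log2FC of 0.09 and did not pass (edgeR adjusted p = 0.275). The log2 ratio of NSF to NAPA counts was −1.15, −1.21 and −1.19 in si_NC and −2.05, −2.16 and −2.00 in si_GRB2, so the groups were separated by 0.89.

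NSF has a partial copy, NSFP1, a pseudogene on the same chromosome, which held 7 reads over the 6 libraries against 7822 for NSF. Reads that match both places equally were dropped by the authors' use of uniquely mapped reads. Among coding genes within 100 kb of NSF, looked at after its fall was seen, LRRC37A2 had a log2FC of 0.06 (adjusted p = 0.796) and WNT3 of −0.44 (adjusted p = 0.321), both from edgeR.

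R-SNAREs split in direction. VAMP8, an R-SNARE of late endosomes and secretory granules and the most abundant member at a mean of 291 FPKM, was at 334, 335 and 336 CPM in si_NC and at 307, 304 and 299 CPM in si_GRB2. Its fall of 0.14 on the log2 scale was small, and the groups did not overlap (edgeR adjusted p = 0.000424). VAMP8 made up 81.6% ± 0.233 of the summed R-SNARE FPKM in si_NC and 78.9% ± 0.309 in si_GRB2 (SD, n = 3 each). Reads that match both copies of VAMP7 may be missing from this sum, which also rests on the unchecked gene lengths behind FPKM. VAMP3 (cellubrevin), which carries recycling endosome traffic to the surface, was at 71.3, 75.6 and 72.7 CPM in si_NC and at 83.5, 84.0 and 83.3 CPM in si_GRB2. It rose by a log2FC of 0.19 (edgeR adjusted p = 0.000667), and its relative VAMP2 by 0.18 (edgeR adjusted p = 0.0109). YKT6, a lipid-anchored R-SNARE of the Golgi, rose from 181 ± 3.64 to 197 ± 2.49 CPM (SD, n = 3 each), a log2FC of 0.13 (edgeR adjusted p = 0.00304). VAMP1 fell by 0.25 on the log2 scale (edgeR adjusted p = 0.0231), from 15.9 ± 0.701 to 13.3 ± 1.47 CPM (SD, n = 3 each). SEC22B, VAMP4, VAMP5 and VAMP7 did not pass.

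SNAP23, the Qbc partner of STX4 and STX3 at the plasma membrane outside neurons, was at 40.2, 40.5 and 41.7 CPM in si_NC and at 47.3, 47.3 and 48.1 CPM in si_GRB2. The groups were well apart, with a log2FC of 0.22 (edgeR adjusted p = 0.000545). SNAP29 and SNAP47 did not pass, with log2FC values of −0.0015 and −0.01. The neuronal SNAP25 held 3 reads in all and was not tested. STX4 itself was at 42.3 ± 1.71 and 45.8 ± 0.386 CPM (SD, n = 3 each) and missed the threshold (log2FC 0.12, 95% interval 0.02 to 0.21, edgeR adjusted p = 0.0525).

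Among the Qb and Qc SNAREs, BNIP1 (SEC20) and USE1 of the ER both work with STX18 in retrieval from the Golgi. BNIP1 was at 15.7, 14.4 and 16.4 CPM in si_NC and at 12.8, 13.3 and 12.6 CPM in si_GRB2, a fall of 0.26 on the log2 scale (edgeR adjusted p = 0.00947). USE1 was at 17.0, 17.1 and 16.8 CPM in si_NC and at 18.3, 19.5 and 19.4 CPM in si_GRB2, a log2FC of 0.17 at the edge of the threshold (edgeR adjusted p = 0.0379). The USE1 call was lost with DESeq2 (adjusted p = 0.166), with no filter on low counts (edgeR adjusted p = 0.0952) and without any 1 library other than si_GRB2 replicate 1. STX18 had a log2FC of 0.03 and did not pass. The other 9 Qb and Qc SNAREs did not pass either, and their log2FC values were −0.11 (BET1) to 0.07 (GOSR1). SEC22C, a relative of SEC22B without the SNARE helix, had a log2FC of 0.16 (edgeR adjusted p = 0.0355). It shrank to 0.10 without si_NC replicate 3 and was then not called (edgeR adjusted p = 0.188), nor was it with DESeq2 (adjusted p = 0.0941). SEC22A did not pass.

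Among the SM proteins picked by symbol, STXBP2, STXBP3 and VPS33A rose. SCFD1 and SCFD2 were not among those picked and are counted with the tethers below. STXBP2 (Munc18-2), a partner of STX3 and STX11, rose from 21.5 ± 0.481 to 25.1 ± 2.62 CPM (SD, n = 3 each), a log2FC of 0.22 (edgeR adjusted p = 0.0188). STXBP3 (Munc18c), a partner of STX4, was at 41.3, 40.8 and 38.7 CPM in si_NC and at 44.5, 41.7 and 52.0 CPM in si_GRB2. Its log2FC of 0.19 (edgeR adjusted p = 0.0321) shrank to 0.10 without si_GRB2 replicate 3, the library at 52.0 CPM, and was then not called. VPS33A, the SM protein of the lysosomal HOPS tether, rose by 0.22 (edgeR adjusted p = 0.0131). VPS45, which works with STX16, had a log2FC of 0.03 with a 95% interval of −0.06 to 0.11. Of the regulators outside the SM family, STXBP4, STXBP5 and STXBP6 did not pass, and STXBP5L held 1 read in all.

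**Figure D3:**
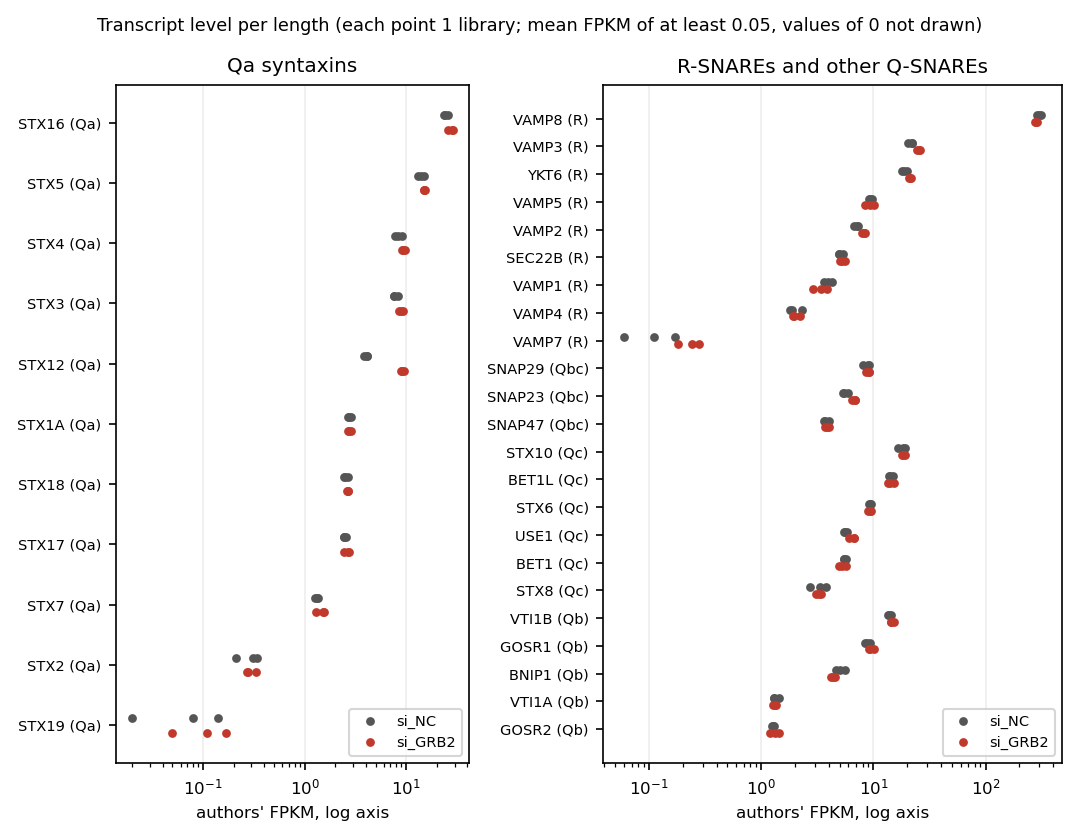
Points give the authors' FPKM, a level per length, of each library on a log axis for the SNAREs described here with a mean of at least 0.05 FPKM, Qa syntaxins on the left and other SNAREs on the right. STX12 moved from 3.99 to 9.18 FPKM on average, to the level of STX3 and STX4, and VAMP8 lay above all other SNAREs in both groups.

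By membrane, 6 of 17 tested members of the plasma membrane, VAMP3 counted among them, rose and 2 fell. For the ER and Golgi, 3 of 12 rose and 1 fell. For endosomes, lysosomes and the trans-Golgi network, 3 of 14 rose and 1 fell. Of 4 members assigned to all membranes, NSF among them, 2 rose and 1 fell. Of 2 assigned to autophagosomes, 0 rose and 0 fell. Over all tested genes, 15.2% rose and 15.5% fell. Apart from STX12 and NSF, the changes that passed were small. The other 13 that rose lay between 0.12 and 0.28 on the log2 scale, or 8.93% to 21.5% above si_NC in mean CPM, and the falls of BNIP1, VAMP1 and VAMP8 between −0.26 and −0.14. Among members not called with a mean of at least 5 CPM, 25 genes, log2FC values ran from −0.22 to 0.12. The calls of BNIP1, NAPB, NSF, SNAP23, STX12, STX16, STX3, VAMP3, VAMP8 and YKT6 held without each library in turn. Those of NAPA, SEC22C, STXBP2, STXBP3, USE1, VAMP1, VAMP2 and VPS33A were each lost without at least 1 library. With DESeq2, NAPB lost its call (adjusted p = 0.0547), as did SEC22C, USE1, VAMP1 and VPS33A. With limma on log2(FPKM + 1), only STX12, VAMP3 and NSF kept theirs.

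Some counts may share reads with overlapping genes, because no source says whether counting used strand. Genes on the opposite strand held reads equal to 99.5% (NKTR) and 91.4% (SS18L2) of those of SEC22C, 59.0% (LRRC57) of SNAP23 and 31.4% (TAPBPL) of VAMP1. On the same strand, the read-through or neighbouring models CTD-3214H19.4 and RP11-512M8.13 held reads equal to 76.7% of STXBP2 and 70.2% of VPS33A. PI4KA, JMJD4 and ZDHHC6 held more reads than SNAP29, SNAP47 and VTI1A, which they overlap on the opposite strand.

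Tethers catch a vesicle before its SNAREs engage, and all 35 genes of a list of tethering subunits with SCFD1, SCFD2 and VIPAS39 were tested. Of these, 13 rose and 2 fell, shares of 37.1% and 5.71% against 15.2% and 15.5% of all tested genes, with a median log2FC of 0.08. ZW10, the subunit of the tether at the ER that binds STX18 and also serves the kinetochore, was at 23.9, 22.4 and 25.5 CPM in si_NC and at 38.1, 38.7 and 36.5 CPM in si_GRB2. It passed the DEG limits with a log2FC of 0.66 (SE 0.05, edgeR adjusted p = 1.22e-07). VPS54, the subunit particular to the GARP tether of the trans-Golgi network, was at 27.7, 27.1 and 25.8 CPM in si_NC and at 16.4, 16.6 and 17.8 CPM in si_GRB2. It passed them downward, with a log2FC of −0.67 (SE 0.06, edgeR adjusted p = 2.11e-07). In a grouping made after the values were seen, 6 of 9 exocyst genes rose and 0 fell, led by EXOC5 at 0.35 (edgeR adjusted p = 6.91e-06), and 1 of 8 COG genes rose. In the same grouping, 2 of the 3 genes ZW10, RINT1 and NBAS rose. Of 7 HOPS and CORVET genes 1 rose and 1 fell, as did 1 each of 5 GARP and EARP genes.

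Of 20 genes that work with STX12 or beside it at early and recycling endosomes, all tested, 5 rose and 2 fell, or 25% and 10%, against 15.2% and 15.5% of all tested genes. Their median log2FC was 0.0014. BLOC1S6 (pallidin), a subunit of the BLOC-1 complex and a binding partner of STX12, was at 18.01, 19.1 and 17.9 CPM in si_NC and at 23.8, 24.8 and 27.8 CPM in si_GRB2. Its log2FC was 0.47 (SE 0.06, edgeR adjusted p = 3.09e-05), and the other 5 BLOC1S genes did not pass. RBSN (rabenosyn-5), a RAB effector that binds VPS45, fell from 20.8 to 15.5 CPM on average, a log2FC of −0.43 (edgeR adjusted p = 0.00012). RAB11FIP5, a RAB11 effector of recycling endosomes, rose by 0.29 (edgeR adjusted p = 0.00066).

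Of 36 calcium sensors and priming factors of regulated secretion, 18 had enough reads, 2 rose and 6 fell, or 11.1% and 33.3%, against 15.2% and 15.5% of all tested genes. Their median log2FC was −0.09. The falls were led by SYT16 at −0.78 (edgeR adjusted p = 0.0136), which held 314 reads in all, and SYTL2, a RAB27 effector, at −0.48 (edgeR adjusted p = 0.00515). SYT1, the synaptic calcium sensor, rose by 0.40 from a low level of 3.22 CPM (edgeR adjusted p = 0.0496).

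**Figure D4:**
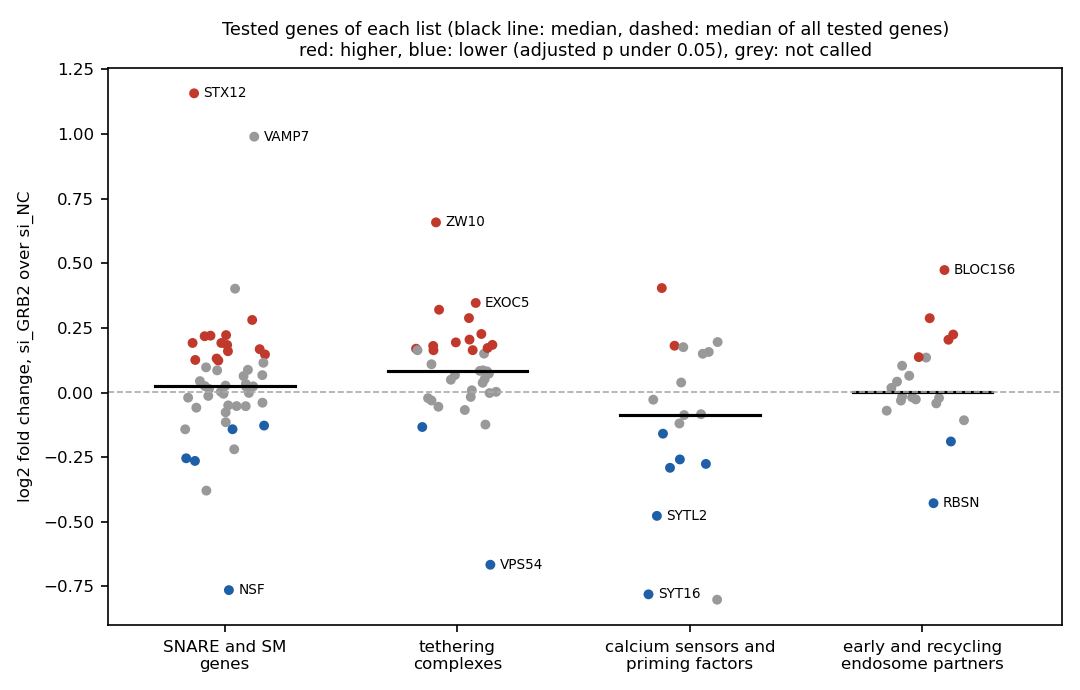
Each point is a tested gene at its log2FC of si_GRB2 over si_NC, in columns for the SNARE and SM genes and the 3 lists of other fusion genes, with a black line at each column's median and a dashed line at the median of all tested genes. STX12 at 1.16 was the highest and NSF at −0.76 the lowest of the first column, and the column medians ran from −0.09 to 0.08.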

How the data were processed

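Per the methods, adaptors and low-quality bases were trimmed, reads aligned to GRCh38 with HISAT2, and uniquely mapped reads used. The authors deposited counts of reads per gene without normalization, and FPKM per gene. The counting tool, its strand setting, the annotation release and the total that scaled FPKM are not given in the sources used here. Here TMM factors were computed in edgeR 4.0.16 under R 4.3.3. The 15801 genes left by filterByExpr were tested by quasi-likelihood, 3 si_GRB2 against 3 si_NC libraries with no covariates, and p-values adjusted by Benjamini-Hochberg. The study used DESeq2, which is an alternative here (1.42.0), as are its size factors in edgeR, other low-count filters, limma 3.58.1 on log2 FPKM, a block on replicate number and leaving out each library. A standard error is the log2 fold change divided by the square root of F. The tests were checked on simulated counts. Positions and sequences are from GENCODE 44 on GRCh38, matched by gene identifier, found for all 53 genes. Genes and lists were chosen with earlier results of these data known. Named are GRB2, STX12, its coding neighbours, members past an adjusted p of 0.05, the 5 members highest in FPKM, the largest change in each class, and in each other list the DEGs and the 3 largest called changes. Others were named after their values were seen. Values of some single genes that the rule names are not reported here, while the counts include them.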

Additional observations from a re-analysis of the deposited data

How the results depend on the processing

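GRB2, STX12 and NSF kept their direction and an adjusted p under 0.05 in all 14 alternatives. Log2 fold changes ran from 1.03 to 1.18 for STX12, from −0.78 to −0.64 for NSF and from −2.18 to −1.91 for GRB2, and STX12 and NSF were the 2 members past the DEG limits in each. For 18 other named members, 249 refits kept the direction in every case. Of these, 168 stayed on the same side of the threshold, 78 lost the call and 3 gained it. Members higher numbered 14, and 9 to 12 with each library left out. Members lower numbered 5, and 3 to 5 with each left out. DESeq2 left 3 lower. Called genes were fewest with FPKM. With limma on log2(FPKM + 1), 2 members were higher, 1 lower, 1400 of all genes were called against 4838, and 5 tethering, 0 calcium-sensor and 2 endosomal genes against 15, 8 and 7. With a pseudocount of 0.1, these numbers were 4, 1, 1534, 6, 0 and 3. With a mean FPKM of at least 1, 1 member was lower, 2689 genes were called, and 2 calcium-sensor genes. The cause was not tested. Leaving out libraries gave 3774 to 4420 called genes. The lists held 11 to 13, 6 to 9 and 5 to 8 called genes. Deviations of same-numbered libraries correlated at 0.23, −0.09 and 0.08, so the numbers were not taken to pair the samples. A replicate block gave 19 called members, as without it, of which 18 were shared. USE1 lost its call (adjusted p = 0.0624, edgeR) and VAMP7 gained one (adjusted p = 0.0281, edgeR). Few counted reads limit VAMP7 and the 4 genes not tested, and for VAMP7 reads that match both of its copies may be missing.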
